A study of Mus musculus with 7 samples.

Results

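The 44 genes described here encode proteins that drive or carry out cell division: cyclins and their kinases, DNA replication proteins, spindle and kinetochore proteins, and common markers of proliferation. They were chosen by name from a list that sets Spag5 beside other mitotic genes, and each had 1 row among the 17732 genes of the authors' deposited table, whatever its abundance. Polyadenylated RNA came from bulk medial prefrontal cortex of wild-type male mice of the inbred 129SvEv strain, taken once a remote memory had been retrieved. The 7 libraries comprised 3 labelled CFC and 4 labelled SC, which share strain, sex, genotype and tissue and differ in that label only; the labels spell out neither name and give no age. The table combines the libraries into 1 comparison, so values per library were not analysed here, the depth of each library is unknown, and the error of each difference is the authors' standard error. Nothing in the labels says whether libraries came from separate animals, and the p-values then measure only the spread between these libraries.

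Whether CFC was divided by SC or SC by CFC is not given in the sources used here, so differences are called positive or negative after their deposited sign. A call means an adjusted p under 0.05 over all genes. A value after ± is the deposited standard error of a log2 fold change, and an interval is the 95% interval computed from it. The tissue label was checked on 5 markers of excitatory cortical neurons, for which the authors' deposited table gave mean normalized counts between 2316 and 106077.

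A cell enters the cycle when D-type cyclins with Cdk4 or Cdk6, and then E-type cyclins with Cdk2, release the E2F factors that switch on DNA replication genes. Cyclin B with Cdk1 then starts mitosis, in which Aurora and Polo-like kinases build the spindle and the Bub and Mad proteins hold back chromosome separation until every kinetochore is attached. Most cells of the mature cortex have left the cycle. Those that still divide in the mature brain are mainly oligodendrocyte precursors, microglia, vascular cells and the progenitors near the lateral ventricle that produce migrating neuroblasts.

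Spag5 was the only one of the 44 genes that passed the threshold, and it was negative. Most of the others had positive estimates that did not pass: 36 of the 44 were positive and 8 negative, where 50.3% of all listed genes were positive. Of the 31 members with an adjusted p, 1 was called, against 0.513% of the 13060 genes with one. An unadjusted p under 0.05 was given for 9 members, 8 positive and 1 negative, against 6.82% of all genes with a p-value, 4.04% on the positive and 2.78% on the negative side. The median log2 fold change of the 44 members was 0.29, beside 0.00099 over all genes. These genes were chosen with results of the same table known, and the counts describe them only.

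**Figure D1:**
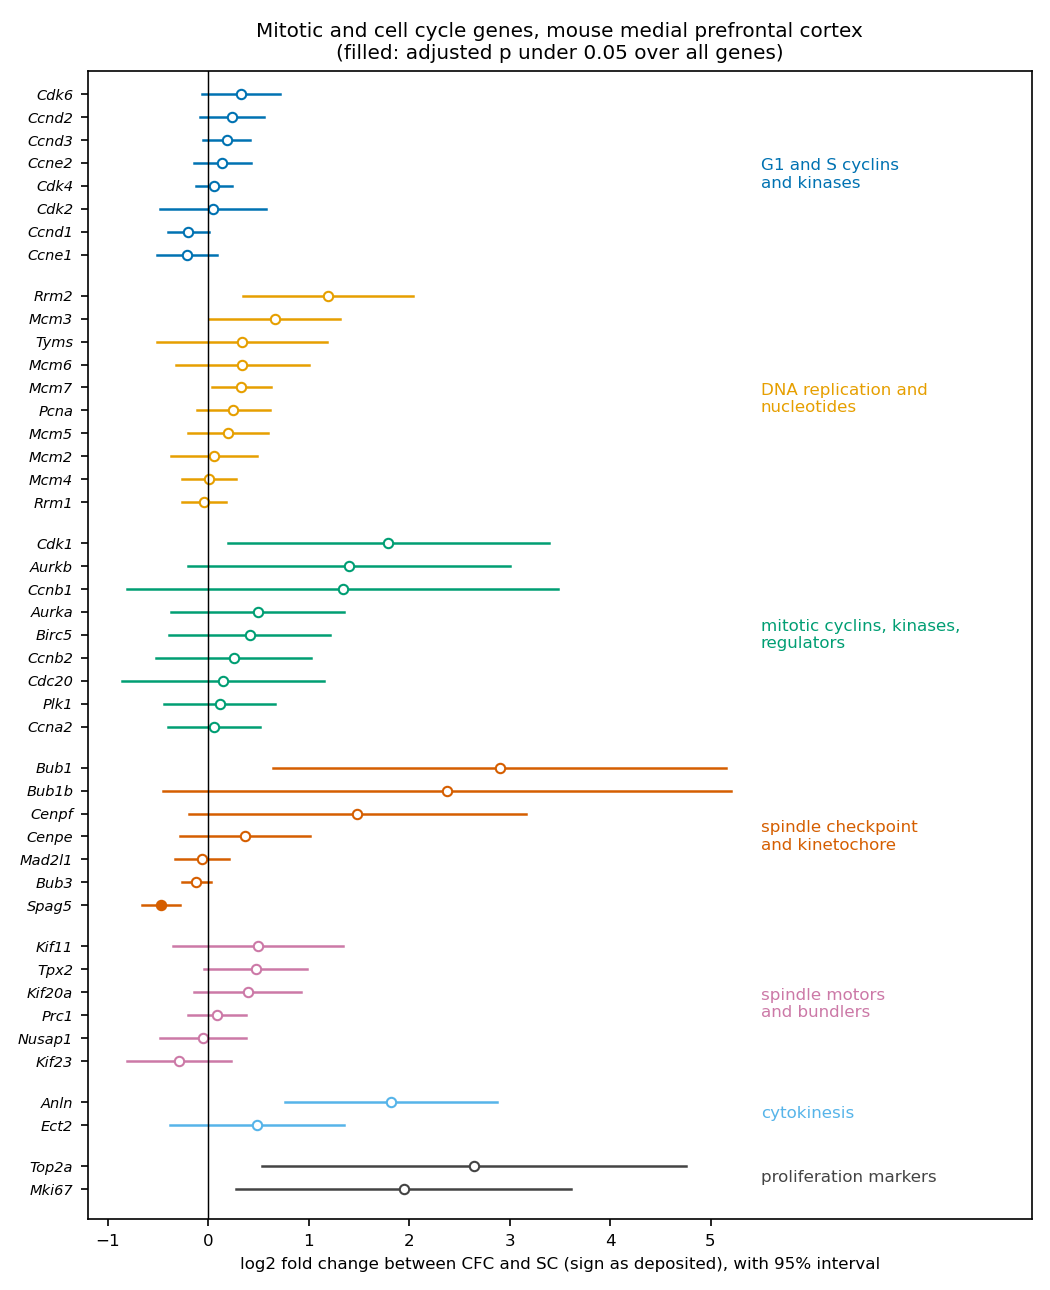
Log2 fold change between the CFC and SC libraries, signed as deposited, on the x axis for each of the 44 genes, grouped by role; lines are 95% intervals and the filled point has an adjusted p under 0.05. Spag5, at -0.47, is the only filled point, and the widest intervals belong to Bub1b and Bub1.

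Spag5 encodes astrin, a protein of the mitotic spindle and of attached kinetochores. For Spag5 (ENSMUSG00000002055) the authors' deposited table gave a mean normalized count of 728, a log2 fold change of -0.47 ± 0.10 and an adjusted p of 0.00106. This is a 1.38-fold difference, with an interval from -0.66 to -0.28 on the log2 scale. Tested against a null of a change of at most 1.2-fold, its unadjusted p by that Wald test was under 0.05, but its adjusted p was 1. The call is therefore one of a difference from 0 and not of one beyond 1.2-fold. Compared with genes of like abundance, its standard error was 1.14 times as large. The gene lies at chr11:78301529-78322457 on the plus strand of GRCm38, and none of its exons overlaps those of another gene in the GENCODE M21 annotation.

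The other 25 mitotic genes gave no call. Positive estimates numbered 21 and negative ones 4, and the median log2 fold change was 0.47. Many were too scarce for a difference as small as that of Spag5 to be resolved: only Bub3, Mad2l1, Nusap1, Ccna2 and Prc1, 5 of the 25, had an interval whose half-width was under the size of the Spag5 value. Bub3, a spindle checkpoint protein, was the closest in abundance: the authors' deposited table listed it at a mean count of 993 and a log2 fold change of -0.12 ± 0.07. Its interval, from -0.26 to 0.03, lies narrowly above that of Spag5, which ends at -0.28. Prc1, which bundles the microtubules of the central spindle, was listed at 0.09 ± 0.15 by the authors' deposited table, and its interval from -0.20 to 0.38 also lies above that of Spag5. Intervals of 12 of the 25 genes did not meet the Spag5 interval. The same held for 12 of the 18 G1, S and replication genes, so it was not particular to mitotic genes. The share over all listed genes was not computed. Spag5 had the lowest log2 fold change of the 44 members, so these counts describe the members only. For 5 of the other 13 mitotic genes, Kif23, Nusap1, Cdc20, Ccnb2 and Ccnb1, the interval held both 0 and the Spag5 value. The genes share the same libraries and their covariance is unknown, so these intervals are set side by side and the difference was not tested.

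Spag5 also differed from the others in level. Mean normalized count per kb of exon, over the GENCODE M21 exons, was 129.5 for Spag5 and 141.7 for Bub3. For the other 24 mitotic genes it ran from 0.957 for Ccnb1 to 24.1 for Prc1. Over all 44 members only Ccnd2, at 211 per kb, Cdk4, at 188 per kb, and Bub3 lay above Spag5, and the median was 11.0, beside 63.7 per kb over all listed genes.

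Promoters of mitotic genes are known for a short element, the CHR (TTTGAA or TTCGAA), that binds the repressor and activator complexes of the late cell cycle, together with CCAAT boxes, which bind NF-Y. The 250 bases before the RefSeq start were searched on both strands for these letters and for E2F motifs, spelled TTGGCGC, or with another core as TTCGCGC, or with yet another as TTCCCGC, and overlaps between motifs were allowed. RefSeq promoters of GRCm38.p6 were found for 36 of the 44 members, 41 promoters in all. A CHR was found in 48% of the 25 promoters of mitotic members and in 12.5% of the 16 promoters of G1, S and replication members, beside 17.1% of all 32851 promoters and 12.9% of the 17055 promoters of genes in the deposited table. A CCAAT box was in 84% and 68.8% of them, beside 33.8% of all and 34.7% of those of listed genes. An E2F motif was in 16% and 37.5%, beside 6.69% of all and 10.5% of those of listed genes. The window of Spag5 held 1 CCAAT box, 20 bases before the RefSeq start and inside the first exon that GENCODE M21 annotates, and none of the searched CHR or E2F letters. The stretches below, of Spag5 and of 4 genes chosen after their values were seen because they carry high positive estimates, end at the RefSeq start or, where GENCODE M21 annotates an exon before it, at that exon. Capitals mark the motifs, on either strand.
Spag5, chr11:78301379-78301528, plus strand: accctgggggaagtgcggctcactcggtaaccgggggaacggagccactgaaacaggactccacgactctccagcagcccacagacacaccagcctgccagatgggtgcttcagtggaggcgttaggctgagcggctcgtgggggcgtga
Top2a, chr11:99024190-99024339, minus strand: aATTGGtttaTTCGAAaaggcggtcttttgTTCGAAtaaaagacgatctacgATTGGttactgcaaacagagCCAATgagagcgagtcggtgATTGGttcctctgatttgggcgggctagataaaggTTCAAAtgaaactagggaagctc
Mki67, chr7:135716380-135716529, minus strand: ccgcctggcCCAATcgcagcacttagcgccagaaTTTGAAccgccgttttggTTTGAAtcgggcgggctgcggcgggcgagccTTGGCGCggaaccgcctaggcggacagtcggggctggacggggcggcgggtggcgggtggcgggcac
Cdk1, chr10:69352939-69353088, minus strand: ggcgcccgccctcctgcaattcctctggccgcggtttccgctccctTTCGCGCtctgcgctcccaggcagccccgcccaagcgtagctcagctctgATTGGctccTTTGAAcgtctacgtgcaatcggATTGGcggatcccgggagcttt
Anln, chr9:22389207-22389356, minus strand: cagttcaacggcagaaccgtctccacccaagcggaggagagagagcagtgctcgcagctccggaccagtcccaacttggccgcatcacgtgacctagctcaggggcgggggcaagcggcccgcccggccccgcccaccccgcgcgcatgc
In these stretches Top2a held 3 CHR and 4 CCAAT sites, Mki67 held 2 CHR, 1 CCAAT and 1 E2F site, and Cdk1 held 1 CHR, 2 CCAAT and 1 E2F site. The stretches of Spag5 and Anln held none. Bub1 and Bub1b had higher estimates than Mki67, Anln and Cdk1, and their stretches, which are not printed, held no CHR. Bub1 held 2 CCAAT sites there and Bub1b held 1. The 250 bases searched for Bub1b held a CHR 188 bases before the RefSeq start. Those of Bub3, which was negative, held at least a CHR and a CCAAT box, as did those of Cdc20, Ccnb2 and Kif11. The intervals of Bub3, Cdc20, Ccnb2 and Kif11 all held 0. A match of letters is a description of the sequence and not evidence of binding.

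The 3 nearest listed genes on each side of Spag5 are all annotated on its strand, and 2 of the 6 shared its sign with intervals that excluded 0. Rskr ends, as annotated, 4723 bases before the start of Spag5, and the authors' deposited table gave it a log2 fold change of -0.38 ± 0.11 with an adjusted p of 0.0806. Aldoc, an aldolase of astrocytes, starts 510 bases after the end of Spag5, and the authors' deposited table gave it -0.17 ± 0.06 with an adjusted p of 0.160. Neither was called, and an unadjusted p under 0.05 was given for these 2 of the 6, beside 6.82% of all genes with a p-value. Aldoc is also 1 of the 8 astrocyte markers read below, of which 6 were negative. For the remaining neighbours Pigs, Unc119, Sdf2 and 2610507B11Rik the authors' deposited table listed log2 fold changes from -0.10 to 0.0014, each with an interval that held 0.

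**Figure D2:**
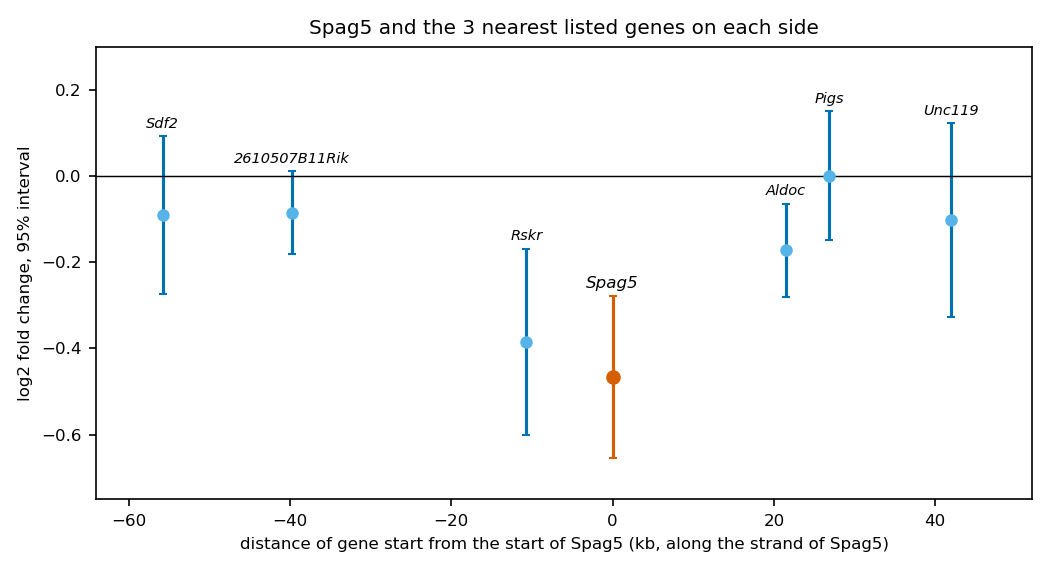
Log2 fold change with its 95% interval for Spag5 (orange) and the 3 nearest listed genes on each side (blue), against the distance of each gene's start from that of Spag5 in kb. Spag5, Rskr and Aldoc have intervals wholly below 0, and the other 4 intervals cross it.

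Proliferation markers had the opposite sign from Spag5. Top2a is the topoisomerase that untangles replicated chromosomes. The authors' deposited table listed it at a mean count of 57.8, a log2 fold change of 2.65 ± 1.08 and an adjusted p of 0.406. Mki67 encodes the Ki-67 protein of dividing cells, and the authors' deposited table listed it at a mean count of 114, a log2 fold change of 1.94 ± 0.85 and an adjusted p of 0.488. Neither passed, and their intervals, from 0.54 to 4.75 and from 0.28 to 3.61, allow anything from a small to a very large positive difference.

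Anln had the smallest p-value among the positive members. It encodes anillin, a scaffold of the contractile ring in cytokinesis that is also present in myelinating oligodendrocytes. The authors' deposited table gave it a mean count of 156, a log2 fold change of 1.82 ± 0.54 and an adjusted p of 0.104. Ect2, the exchange factor that activates RhoA at the cleavage site, was listed at a mean count of 16.9 and at 0.49 ± 0.44 in the authors' deposited table.

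The checkpoint and kinetochore genes divided by abundance. Beside Bub3, the abundant checkpoint gene Mad2l1 had a mean count of 178 and a log2 fold change of -0.06 ± 0.14 per the authors' deposited table. The checkpoint kinases Bub1 and Bub1b were scarce, with mean counts of 5.30 and 9.02, and the authors' deposited table put their log2 fold changes at 2.90 ± 1.15 and 2.38 ± 1.44. Cenpf and Cenpe, large proteins of the outer kinetochore, were at 1.48 ± 0.86 and 0.37 ± 0.33 per the authors' deposited table. Of these 6 genes only Bub1 had an interval that excluded 0, from 0.65 to 5.16, and it was too scarce for an adjusted p.

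All 9 mitotic cyclins, kinases and regulators were positive, and none was called. Cdk1 is the kinase that starts mitosis. The authors' deposited table gave it a mean count of 7.08, a log2 fold change of 1.79 ± 0.81 and an unadjusted p of 0.0277. Its partner Ccnb1 was the scarcest member, with a mean count of 4.03 and an interval from -0.81 to 3.49. Cyclin A2 (Ccna2) and the Polo-like kinase Plk1 were the only genes of this group with an adjusted p, and per the authors' deposited table they were at 0.06 ± 0.23 and 0.11 ± 0.28. The Aurora kinases Aurka and Aurkb, the Aurkb partner Birc5 (survivin), cyclin B2 (Ccnb2) and Cdc20, an activator of the anaphase promoting complex, lay between 0.14 and 1.40, with intervals that all held 0.

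No spindle motor or bundler had an interval that excluded 0. The highest estimates were those of Kif11, the motor that separates the spindle poles, and Tpx2, an activator of Aurora A, listed at 0.50 ± 0.43 and 0.47 ± 0.26 in the authors' deposited table. Kif23, a motor of the central spindle, was the lowest at -0.29 ± 0.26, and Nusap1, a spindle microtubule bundler, was at -0.06 ± 0.22, per the authors' deposited table. Kif20a lay at 0.39, and 29.3% of its exon bases overlap exons of Cdc23 on the opposite strand, so reads of that stretch cannot be told apart from those of Cdc23 without the strand setting. Such stretches make up 11.1% to 23.4% of exon bases for Prc1, Ccna2, Ccne2, Cdk4 and Ccnd1.

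Cyclins and kinases of G1 and S, which non-dividing neurons and glia also express, were the group with the highest median count and the median closest to 0. None of the 8 genes had an unadjusted p under 0.05, and the authors' deposited table put their log2 fold changes between -0.21 for Ccne1 and 0.32 for Cdk6. Ccnd2, the most abundant member, was listed at a mean count of 1987 and at 0.24 ± 0.16 in the authors' deposited table. Ccnd1 lay on the other side of 0, and the authors' deposited table gave -0.20 ± 0.10 with an unadjusted p of 0.0574. Ccnd3, Ccne2 and Cdk2 lay at 0.18 ± 0.12, 0.14 ± 0.15 and 0.05 ± 0.27 per the authors' deposited table. Cdk4 had the smallest standard error of the group, at 0.06 ± 0.09 per the authors' deposited table, and its interval from -0.12 to 0.24 excludes a difference of the size of Spag5 in either direction.

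Replication genes were positive in 9 of 10 cases, and none was called. Rrm2 is the subunit of ribonucleotide reductase that dividing cells make in S phase. The authors' deposited table gave it a mean count of 28.5, a log2 fold change of 1.19 ± 0.43 and an unadjusted p of 0.00562. Its partner Rrm1, whose protein is steadier through the cycle, was at -0.04 ± 0.11 with a mean count of 309 per the authors' deposited table. Among the 6 subunits of the MCM helicase, the authors' deposited table put Mcm3 at 0.66 ± 0.33 and Mcm7 at 0.33 ± 0.15, with unadjusted p-values of 0.0463 and 0.0262. Mcm2, Mcm4, Mcm5 and Mcm6 lay between 0.0071 and 0.34, with intervals that held 0. The exons of Mcm7 overlap those of Ap4m1 and Cops6 on the opposite strand. The sliding clamp Pcna and thymidylate synthase (Tyms) were at 0.25 ± 0.18 and 0.34 ± 0.43 per the authors' deposited table.

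Standard errors separated a further group. For 6 members the standard error was over 2 times the running median of genes of similar mean count, beside 1.47% of all listed genes, and all 6 were positive. The ratio was 4.85 for Mki67, 4.43 for Top2a, 3.54 for Anln, 2.80 for Cenpf, 2.49 for Ccnd2 and 2.39 for Bub1b. Over the 44 members the median ratio was 1.06, and Spag5 and Bub3 lay near it, at 1.14 and 0.961. The ratio compares genes of the same mean count over both groups; whether counting error in the group with fewer reads or spread between libraries enlarged a standard error was not tested.

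**Figure D3:**
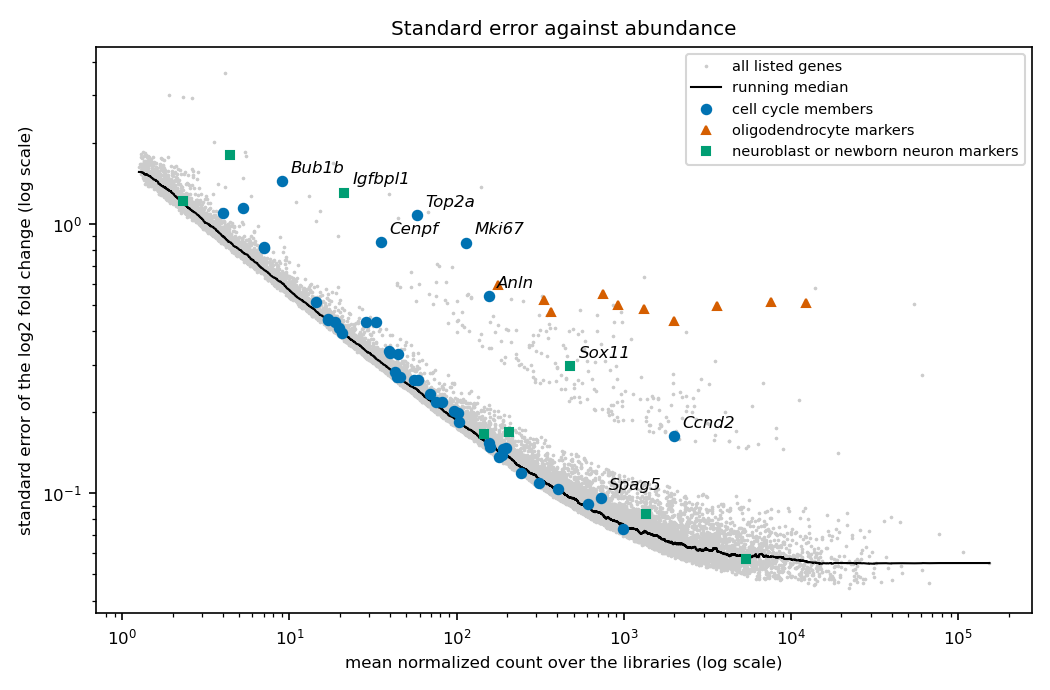
Standard error of the log2 fold change against the mean normalized count, both on log scales, for all listed genes (grey), their running median (line), the 44 members (blue circles), and markers of oligodendrocytes (orange triangles) and of neuroblasts (green squares). Mki67, Top2a, Anln and Cenpf stand above the line with the oligodendrocyte markers and with Sox11 and Igfbpl1, while Spag5 lies close to it.

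Markers of cells that divide, or that come from dividing cells, were read beside these values. In bulk RNA, fewer cells of a type and less RNA per cell cannot be told apart. All 10 oligodendrocyte markers were positive, at a median of 1.28 on the log2 scale, and all 10 had standard errors over 2 times those of similar genes, as Anln did. Of 8 markers of neuroblasts or newborn neurons, 7 were positive, and the median was 0.24. Igfbpl1, a gene of migrating neuroblasts, was listed at a mean count of 21.2 and at 4.10 ± 1.31 in the authors' deposited table, a standard error 3.32 times that of similar genes. For Sox11, a transcription factor of immature neurons, the authors' deposited table gave 0.82 ± 0.30, a ratio of 3.08, and for Dcx 0.19 ± 0.08. The other genes of this list lay nearer 0 or were scarce: the authors' deposited table put Neurod1 at -0.05 ± 0.17, Tubb3 at 0.04 ± 0.06, Nes at 0.17 ± 0.17, Eomes at 0.29 ± 1.80 and Neurog2 at 1.13 ± 1.21. Tubb3 had the highest mean count of the 8, at 5377, which lies in the range of the excitatory neuron markers. Its value was therefore not read as one of neuroblasts alone. None of the 10 oligodendrocyte markers was called, nor any of the 5 neuroblast markers with an adjusted p; Igfbpl1, Eomes and Neurog2 were too scarce to have one. With no filter on mean count, a setting chosen after seeing the data, none of these markers passed either. None was at 0, and the lowest mean count was 2.31, that of Neurog2. The part of either cell type in the positive estimates of Mki67, Top2a and Anln was not tested.

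Oligodendrocyte precursors, the main dividing cells of the cortex, had 5 of 8 markers positive and a median of 0.11, with no call and 1 unadjusted p under 0.05, that of Sox10. Sox10 was also the only 1 of the 8 with a standard error over 2 times that of similar genes, a ratio of 3.14, as all 10 oligodendrocyte markers had. Its value was therefore not read as one of precursors alone. Pdgfra, the receptor that defines precursors, was at -0.04 ± 0.09 per the authors' deposited table. Microglial markers had a median of -0.13 with 7 of 8 negative, endothelial markers -0.17 with 8 of 8 negative, and astrocyte markers -0.10 with 6 of 8 negative, and none of them was called. All 7 markers of upper cortical layers were negative, as Spag5 was, with a median of -0.27, and 2 of them, Rasgrf2 and Otof, were called. Otof was close to the threshold, with an adjusted p of 0.0496 in the authors' deposited table. With no filter on mean count, 1 of the 7 was called. For these and the following calls, the share called over all genes with an adjusted p was 0.513%. Of the 5 markers of excitatory neurons, Camk2a was negative and called, at -0.29 ± 0.06 with an adjusted p of 0.00151 in the authors' deposited table, and the median of the 5 was -0.03. The part of these markers in the value of Spag5 was not tested. Deep-layer markers had the other sign, with 8 of 8 positive, a median of 0.53 and 5 calls, and the 4 listed haemoglobin and erythroid genes were negative, with a median of -0.25 and no call.

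**Figure D4:**
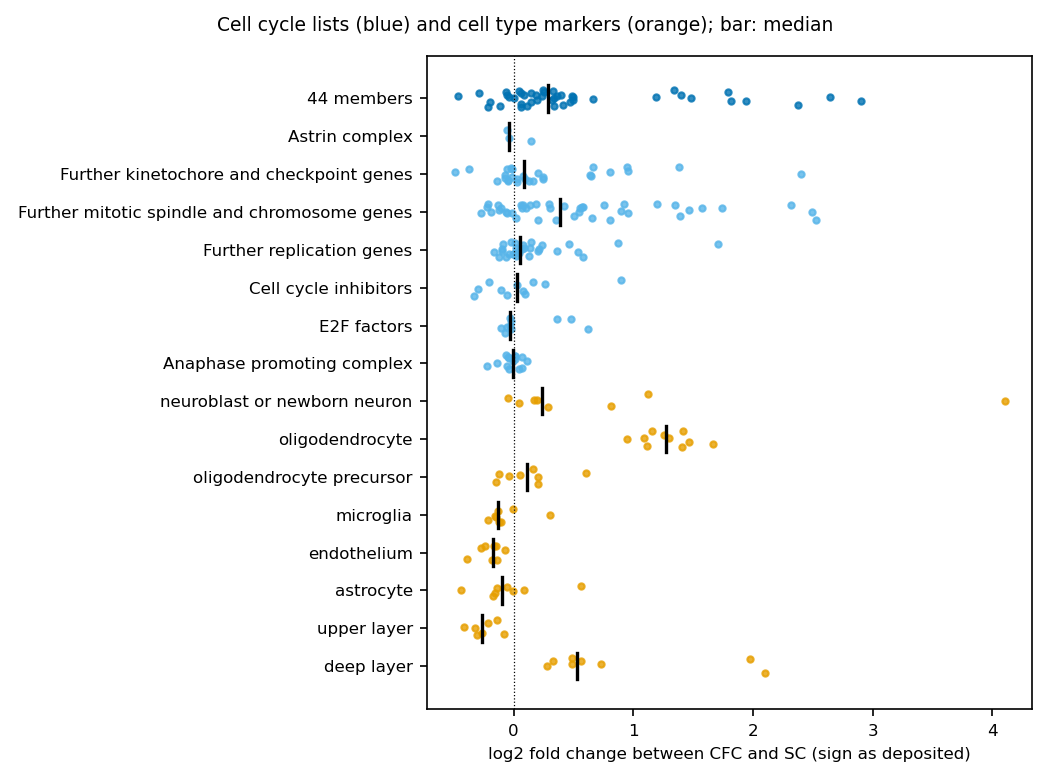
Log2 fold change between the CFC and SC libraries, signed as deposited, for each gene (point) of the 44 members, of 7 other cell cycle lists (blue) and of 8 cell type marker lists (orange), with the median of each list as a bar. The spread to the right among the members recurs among further mitotic spindle and chromosome genes, whose median is 0.39, and not in the anaphase promoting complex, whose median is -0.0059. The median mean count is 20.7 in the former list and 774 in the latter, so their precision differs.

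The rest of the cell cycle was read through 7 other lists. Of their 140 listed genes 85 had an adjusted p, and none of these was called; with no filter on mean count, a setting chosen after seeing the data, none of the 140 passed. An unadjusted p under 0.05 was given for 10 of the 140, 8 positive and 2 negative, a share of 7.14% beside 6.82% of all genes. The 3 partners of astrin at the kinetochore had intervals that held 0. The authors' deposited table put Knstrn at 0.14 ± 0.40, Mycbp at -0.05 ± 0.17 and Dynll1 at -0.04 ± 0.06. Knstrn had a mean count of 28.0, and its interval, from -0.64 to 0.92, also held the Spag5 value. Further mitotic spindle and chromosome genes were positive in 32 of 42 cases, with a median of 0.39. Cdca2, Kif2c and Kif18b were at 2.32 ± 0.82, 2.49 ± 0.98 and 1.74 ± 0.81, and all had mean counts under 10, per the authors' deposited table. Psrc1, a spindle protein, was negative, and the authors' deposited table gave -0.27 ± 0.13 with an unadjusted p of 0.0342. Further kinetochore and checkpoint genes had a median of 0.08, with 17 of 28 positive, and further replication genes 0.05, with 22 of 31 positive. Uhrf1, which carries DNA methylation through replication, had the smallest p-value of the 7 lists. The authors' deposited table gave it a mean count of 26.1, too low for an adjusted p, with 1.71 ± 0.49 and an unadjusted p of 5.27e-04. Subunits of the anaphase promoting complex, which neurons keep, had a median of -0.0059, E2F factors -0.03 and cell cycle inhibitors 0.02. The anaphase promoting complex had a median mean count of 774 and a median standard error of 0.08. For the further mitotic spindle and chromosome genes these were 20.7 and 0.40, so the spreads of these lists are not alike in precision.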

How the data were processed

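Per the submitters' processing notes, the reads were processed with Trimmomatic, Subread and DESeq2 on mm10; versions, gene annotation and strand setting are not given in the sources used here. The authors' deposited table of 1 comparison supplied every value: a mean normalized count (a signal the authors averaged across libraries), a log2 fold change with its standard error, a score that is the Wald statistic, and p-values before and after adjustment. The adjusted p was deposited for genes with a mean count of 34.9 or more. No count per library was used, so the planned edgeR test was not run and its stated fallback, the authors' p-values, was used.

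Intervals span the normal quantile times the standard error on either side of the value. Ratios of standard errors are to the running median over 100 genes on each side in order of mean count. Exon lengths, overlaps and neighbours came from GENCODE M21 (GRCm38), which held all 44 members. For 31 of the 41 RefSeq promoters, bases after the start were found in a GENCODE transcript of the same gene, which checks the strand. All 44 members were named, grouped by role; beyond them, the rule was the 3 nearest listed genes on each side of a called member, the partners of astrin and, of each list, at most its 3 extremes on either side, not all of which are printed. The members and lists were chosen with earlier results of these data known. The promoters printed beside that of Spag5, and the choice among the list genes, were picked after their values were seen. The plan had been to print those of the mitotic members with the highest mean counts. The calculation of adjusted p-values and intervals was tested on simulated data. The simulation took the deposited standard errors as true, so it cannot tell whether those errors are right. Python 3.11.15, pandas 2.3.3 and SciPy 1.17.1 were used.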

Additional observations from a re-analysis of the deposited data

How the results depend on the processing

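No paired analysis was possible because the table analysed here holds no values per library; for the same reason other normalizations, other count tests and fits without each replicate in turn were not run, and whether 1 library decides a value is unknown. Spag5 stayed the only member called with no filter on mean count, a minimum of 5 or 100, an adjustment over the listed genes, a Bonferroni adjustment and a threshold of 0.1, with an adjusted p from 9.45e-04 to 0.0143 where that p was recomputed. Against a null of at most 1.2-fold its adjusted p was 1 and 0 members were called, with 6 at an unadjusted p under 0.05 by that Wald test. Calls over all genes were 67, and 21 with Bonferroni, 2 against that null and 101 at a threshold of 0.1. Members with an unadjusted p under 0.05 were 9, and 4 once the 17 members at 100 mean counts or more were kept. For the other 30 members with an adjusted p, the 166 recomputed values all stayed above 0.05; with no filter none of the 13 scarce members passed.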

Other observations

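The share of positive signs was higher among the scarce members. All 13 members that were too scarce for an adjusted p had a positive log2 fold change, and 25 of the 27 with a mean count under 100 did, beside 51.7% of listed genes between the lowest member's mean count and 100. Of the 17 members with a mean count of at least 100, 11 were positive, and the median log2 fold change of the 17 was 0.09. An unadjusted Wald p under 0.05 was given for 3 positive members of these 17, Anln, Mcm7 and Mki67, and for 1 negative, Spag5. Among the 27 scarcer members it was given for 5 positive and 0 negative ones. The positive share over all genes with a p-value was 4.04%, and shares over genes of at least 100 mean counts were not computed. The mean over the 44 members weighted by the inverse of the squared standard error was 0.03, and 0.07 without Spag5, an alternative chosen after seeing the data, where the unweighted median was 0.29.

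Some related genes differed in the size or the sign of their estimates. In the authors' deposited table Rrm2 and Rrm1 had log2 fold changes of 1.19 ± 0.43 and -0.04 ± 0.11. Bub1, at a mean count of 5.30, and Bub3 had 2.90 ± 1.15 and -0.12 ± 0.07. Ccnd2 and Ccnd1 had 0.24 ± 0.16 and -0.20 ± 0.10, and both intervals held 0. These pairs were chosen after their values were seen, and the differences within them were not tested.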
